A study of Mus musculus with 6 samples.

Results

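The genes described here are the mouse genes for the alpha chains of collagens, chosen by name: every gene whose symbol is Col, a type number, the letter a and a chain number. The deposited table of 56359 genes and loci held 44 of them, and 36 of the 44 were tested among 16411 genes, a gene being tested where 3 or more of its 6 values were not under 1 TPM (a length-scaled transcript level that sums to the same total in every sample). RNA sequencing was done on 3 samples of C57BL/6 embryos at embryonic day 12 that lacked Tmem216 (Tmem216-/-) and on 3 wild type samples of the same strain and age. Tmem216 encodes a membrane protein at the base of the primary cilium. The labels give the source only as embryo, without the part taken, the way the null allele was made or whether the replicates came from different embryos. The p values therefore rest on the differences among replicate samples, and these may be technical.

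Collagens are proteins of the extracellular matrix built from 3 alpha chains wound into a triple helix. Fibrillar collagens form the tensile fibrils of skin, tendon, bone and loose mesenchyme, type IV collagen forms the sheet-like network of basement membranes, and types II, IX and XI form the fibrils of cartilage. The remaining types lie on the surface of fibrils, form beaded filaments or hexagonal networks, or span the plasma membrane. At this stage of mouse development the limb and vertebral cartilages are forming and bone has not yet been laid down. In a bulk sample, fewer cells of a type and less RNA per cell cannot be told apart.

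Tmem216 itself was at 2.25, 0.51 and 1.39 TPM in Tmem216-/- samples and at 31.0, 30.7 and 17.4 TPM in wild type samples, so the libraries matched their labels. The number of reads is unknown, because TPM keeps no depth. Heart muscle markers were higher in Tmem216-/-: of a list of 10, 10 were higher and 9 passed the test, and their summed level ran from 863 to 2234 TPM in Tmem216-/- and from 54.5 to 78.7 TPM in wild type. The summed level of 8 hepatocyte markers ran from 104 to 998 TPM in Tmem216-/- and from 203 to 2386 TPM in wild type. Of the 8, 0 were higher, 8 were lower and 0 passed, and the groups overlapped for each. The summed level of 8 caudal and hindlimb genes ran from 9.56 to 32.6 TPM in Tmem216-/- and from 67.3 to 141 TPM in wild type. Of these 8, 8 were lower and 0 passed, and the groups lay apart for 4, beside 4.83% of all tested genes that lay apart with lower values. The part of these tissue markers in the collagen values was not tested.

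No collagen chain passed the test between Tmem216-/- and wild type. Of the 36 tested chains, 0 passed limma at an adjusted p under 0.05, beside 0.104% of all tested genes (0.0975% higher and 0.00609% lower in Tmem216-/-). An unadjusted p under 0.05 was found for 0 of 36, beside 4.46% of all tested genes. Of the chains 18 were higher in Tmem216-/- (50%, beside 48.3% of all tested genes) and 18 were lower, and their median log2 fold change was -0.00 beside -0.01 over all 16411 genes. In 0 of the 36 chains did the values of the groups lie apart, beside 9.57% of all tested genes. The log2 fold changes ran from -0.49 (Col17a1) to 0.37 (Col20a1), and 0 of 36 exceeded 0.5 in size, beside 7.37% of all tested genes.

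The size of change that the samples leave possible was read from the 95% intervals of the log2 fold changes. These are on the log2(TPM + 1) scale, which understates changes of low chains. On that scale the interval lay within a 2-fold change in either direction in 34 of 36 chains, and within 1.5-fold in 19. For chains near 1 TPM, such as Col20a1 (upper limit 0.94) and Col6a6 (0.64), such an interval still allows a change in TPM beyond 2-fold. The exceptions at 2-fold on that scale were Col24a1, from -1.0 to 0.87, and Col17a1, from -1.24 to 0.26, both near 2 TPM. The median half-width of the interval was 0.44, without adjustment for the number of genes. An estimated difference smaller than this does not reach an unadjusted limma p under 0.05 in a chain with the median interval. Passing the adjusted test took a larger estimated difference. The 36 chains were also compared by an exact permutation test over the samples. The smallest two-sided p that 3 against 3 samples can give is 0.1, and the lowest value among the chains was 0.2.

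**Figure D1:**
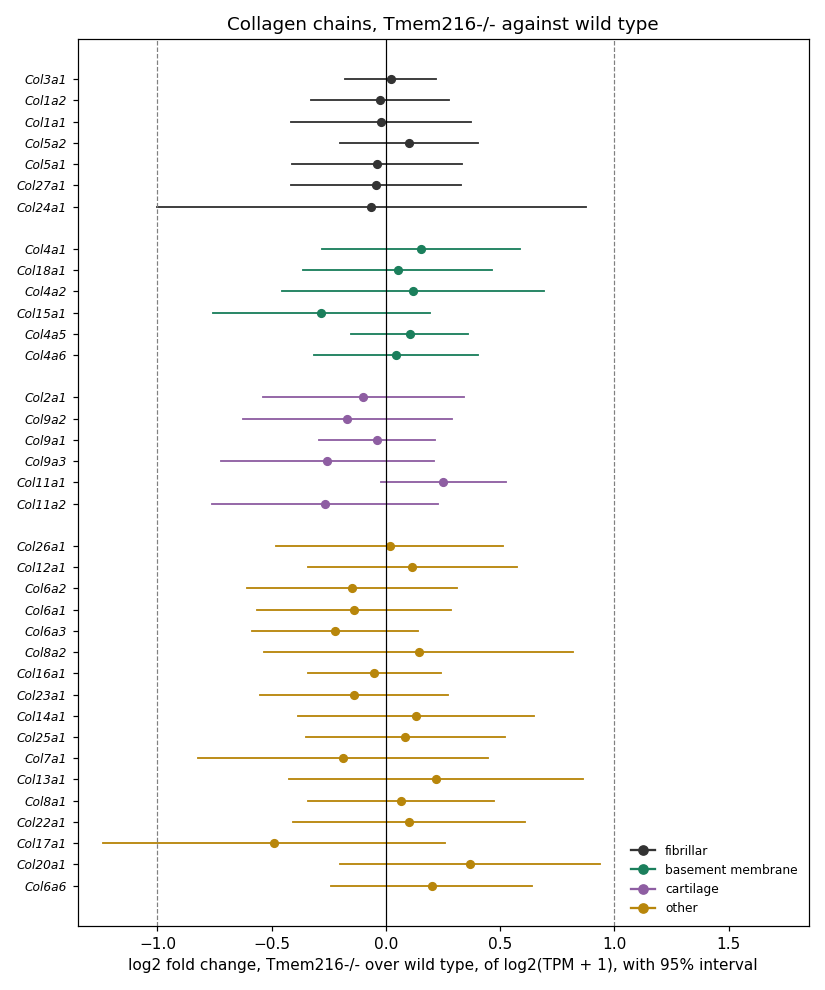
Points give the log2 fold change (Tmem216-/- over wild type, on the log2(TPM + 1) scale) of each tested chain, and lines its 95% interval. Dashed lines mark a 2-fold change on that scale, and colours mark the class. All 36 intervals cover 0, and those of Col24a1 and Col17a1 reach beyond the 2-fold line.

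The fibrillar chains were the most abundant class. They made up 47.5%, 44.2% and 45.9% of the summed collagen TPM in Tmem216-/- replicates 1, 2 and 3, and 47.9%, 47.8% and 41.5% in wild type replicates 1, 2 and 3. The class held 8 chains, of which 7 were tested, 2 were higher, 5 were lower and 0 passed, with a median log2 fold change of -0.03. Col3a1, the single chain of type III collagen in extensible tissues, was the highest of all collagen genes, at 394, 365 and 339 TPM in Tmem216-/- and 359.5, 366 and 354 TPM in wild type. The groups overlapped, and the log2 fold change of 0.02 had an interval from -0.18 to 0.22 (SE 0.08, adjusted p = 0.988). Its coefficient of variation over the 6 samples was 5.01%, the lowest of the 36.

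Col3a1 lies on the plus strand of chromosome 1 at 45311538 to 45349706 (mm10), and its sequence before the start is shown because this is the most abundant chain. The 250 bases come from RefSeq (GRCm38.p6, chr1:45311288-45311537, plus strand), and capitals mark the TATAAA motif.
Col3a1 upstream: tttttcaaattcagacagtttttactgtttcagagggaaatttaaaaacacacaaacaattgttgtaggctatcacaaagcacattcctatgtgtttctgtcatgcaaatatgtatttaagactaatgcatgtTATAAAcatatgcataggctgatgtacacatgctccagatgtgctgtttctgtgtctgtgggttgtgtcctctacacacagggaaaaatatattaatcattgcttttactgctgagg
The stretch has a GC content of 35.2%, beside a median of 59.0% over the collagen promoters in the table and 52.4% over all promoters. TATAAA was found on either strand in 13.2% of 38 promoter windows of 35 collagen genes and in 12.4% of all 32851 windows of the same length. CCAAT was found in 34.2% of the collagen windows and 33.9% of all windows, and GGGCGG in 57.9% of the collagen windows and 32.7% of all windows; these are letter matches and not sites.

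Type I collagen, the main fibril of bone, skin and tendon, is built from the products of Col1a1 and Col1a2. Col1a2 was at 294, 247 and 238 TPM in Tmem216-/- and 256, 237 and 302 TPM in wild type, a log2 fold change of -0.03 (SE 0.13, adjusted p = 0.990). Col1a1 was at 180.3, 146 and 146 TPM in Tmem216-/- and 164, 128 and 191 TPM in wild type, a log2 fold change of -0.02 (SE 0.16, adjusted p = 0.996). In both genes the highest sample was wild type replicate 3 and the lowest was wild type replicate 2, with the Tmem216-/- samples between them.

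Type V collagen regulates the width of type I fibrils. Col5a2 was at 57.6, 47.1 and 60.6 TPM in Tmem216-/- and 53.9, 46.0 and 53.6 TPM in wild type (log2 fold change 0.10, SE 0.13, adjusted p = 0.983). Col5a2 lies 24.6 kb from Col3a1 on chromosome 1, on the opposite strand. Col5a1 averaged 50.8 ± 5.75 TPM in Tmem216-/- and 52.6 ± 10.1 TPM in wild type (SD, n = 3 each). Col5a3, a further type V chain, had 1 sample at 1 TPM or more and was not tested, with 0.45 to 0.69 TPM in Tmem216-/- and 0.46 to 1.27 TPM in wild type. Among the less abundant fibrillar chains, Col27a1, which is made in cartilage, averaged 17.2 ± 2.32 TPM in Tmem216-/- and 17.8 ± 2.71 TPM in wild type. Col24a1 was at 2.45, 1.53 and 2.95 TPM in Tmem216-/- and 4.53, 2.59 and 0.98 TPM in wild type, and all 3 Tmem216-/- values lay inside the wild type range.

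**Figure D2:**
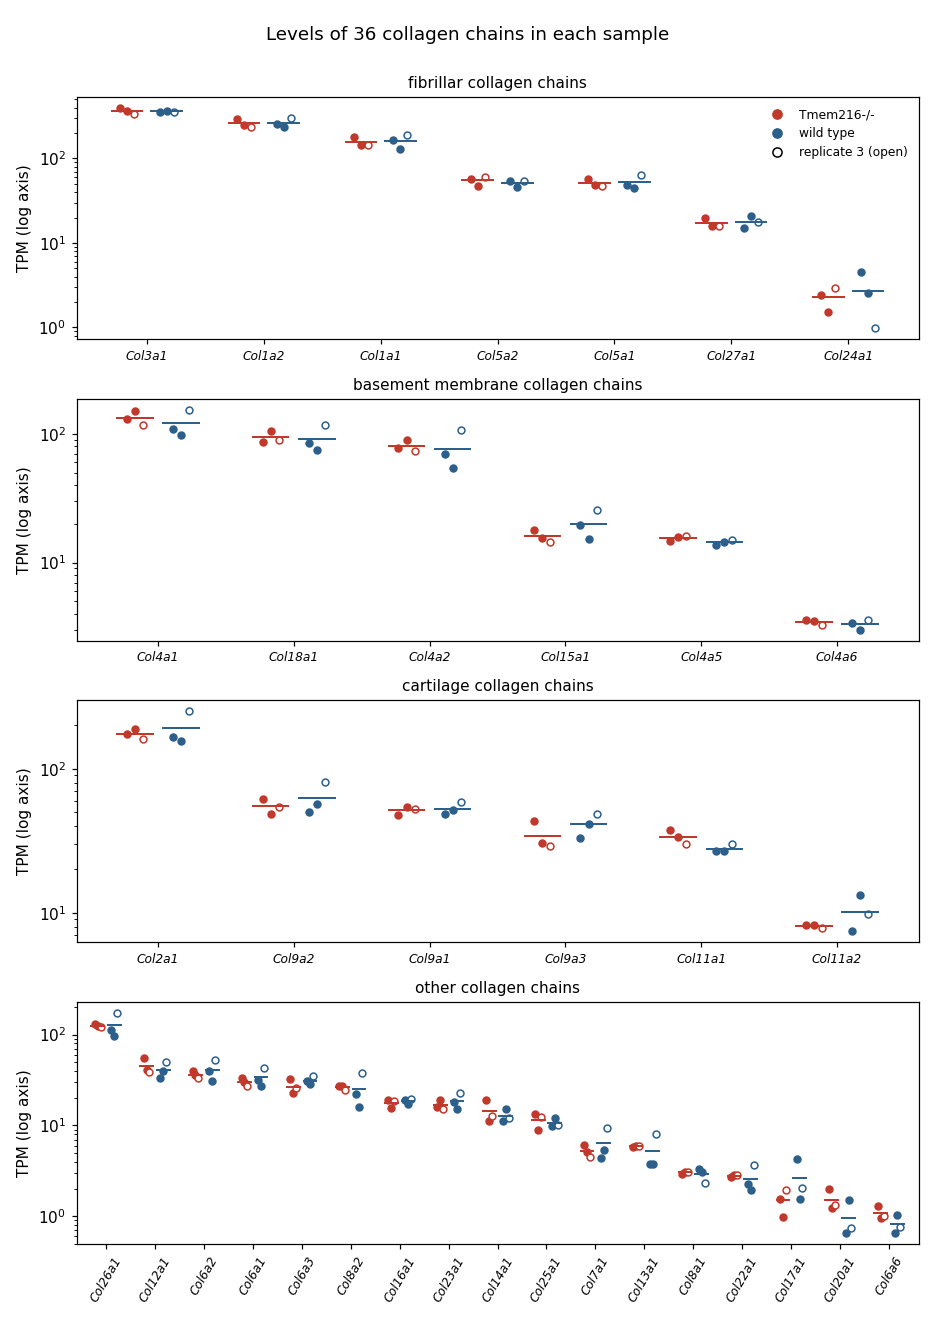
Each panel gives the TPM (log axis) of the tested chains of a class in every sample, with Tmem216-/- in red to the left, wild type in blue to the right, replicate 3 as open circles and lines at the group means. In the fibrillar panel Col3a1 stays between 339 and 394 TPM, and for 21 of the 36 chains the open blue circle, wild type replicate 3, is the highest point.

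Basement membrane chains had a median log2 fold change of 0.08, with 5 of 6 tested chains higher, 1 lower and 0 passing. Col4a1 and Col4a2 encode the alpha chains of the type IV network found in nearly every basement membrane. Col4a1 was at 130.1, 149 and 117 TPM in Tmem216-/- and 109, 98.3 and 154 TPM in wild type (log2 fold change 0.15, SE 0.18, adjusted p = 0.983). Col4a2 was at 77.7, 89.7 and 74.0 TPM in Tmem216-/- and 69.7, 53.8 and 107 TPM in wild type (0.12, SE 0.24, adjusted p = 0.983). In both genes wild type replicates 1 and 2 were the lowest samples and wild type replicate 3 the highest. Without wild type replicate 3 the log2 fold changes were 0.34 for Col4a1 (adjusted p = 0.546) and 0.38 for Col4a2 (adjusted p = 0.587). Without wild type replicate 2 they were 0.02 for Col4a1 (adjusted p = 0.959) and -0.11 for Col4a2 (adjusted p = 0.803), so the direction of Col4a2 rested on that sample.

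The 6 type IV genes lie in head-to-head pairs, and the sequence at their starts is shown because the 3 pairs stood at 3 different levels. Coordinates are in mm10, sequences are from RefSeq (GRCm38.p6), and capitals mark GGGCGG or CCAAT on either strand. Col4a1 (chromosome 8, 11198423 to 11312826, minus strand) and Col4a2 (11312805 to 11449287, plus strand) overlap by 22 bases at the starts of their first exons (chr8:11312805-11312826). Col4a4 (chromosome 1, 82448423 to 82586849, minus strand) and Col4a3 (82586921 to 82722059, plus strand) are separated by 71 bases (chr1:82586850-82586920). Col4a6 (chromosome X, 141165403 to 141474076, minus strand) and Col4a5 (141475385 to 141689234, plus strand) are separated by 1308 bases, of which the 250 before Col4a6 (chrX:141474077-141474326, minus strand) and the 216 before Col4a5 (chrX:141475169-141475384, plus strand) are given.
Col4a1 and Col4a2 shared start: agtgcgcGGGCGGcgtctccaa
Col4a4 to Col4a3 gap: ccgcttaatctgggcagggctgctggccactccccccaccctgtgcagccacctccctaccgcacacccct
Col4a6 upstream: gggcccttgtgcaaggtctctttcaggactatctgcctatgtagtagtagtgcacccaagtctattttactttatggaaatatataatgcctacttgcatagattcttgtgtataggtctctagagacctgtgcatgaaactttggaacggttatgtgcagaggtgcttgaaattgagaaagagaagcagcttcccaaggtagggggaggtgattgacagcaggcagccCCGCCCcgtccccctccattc
Col4a5 upstream: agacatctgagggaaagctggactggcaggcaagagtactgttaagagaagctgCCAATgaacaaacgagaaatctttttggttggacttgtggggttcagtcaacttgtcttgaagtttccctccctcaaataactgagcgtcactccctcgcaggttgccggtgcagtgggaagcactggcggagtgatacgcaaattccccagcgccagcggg
None of these stretches holds TATAAA on either strand. The GC content was 72.7% in the shared start, 69.0% in the gap between Col4a4 and Col4a3, 47.6% before Col4a6 and 52.3% before Col4a5.

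Col4a1 and Col4a2 were the most abundant pair, followed by Col4a5 and Col4a6 and then by Col4a3 and Col4a4. Col4a5, which encodes a chain of the basement membranes of kidney, lens and muscle surfaces, was at 14.7, 15.7 and 16.1 TPM in Tmem216-/- and 13.7, 14.4 and 15.0 TPM in wild type (log2 fold change 0.10, SE 0.11, adjusted p = 0.983). Its partner Col4a6, made with it in smooth muscle and epithelial basement membranes, was at 3.47 ± 0.17 TPM in Tmem216-/- and 3.33 ± 0.29 TPM in wild type (SD, n = 3 each). Col4a3 and Col4a4, which encode chains of the mature kidney filter, were not tested. Col4a3 was at 0.03 to 0.22 TPM in Tmem216-/- and 0.01 to 0.05 TPM in wild type, and Col4a4 at 0.14 to 0.19 TPM in Tmem216-/- and 0.08 to 0.18 TPM in wild type.

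Types XV and XVIII carry heparan or chondroitin sulphate chains and link basement membranes to the matrix around them. Col18a1, whose protein releases endostatin, was at 86.1, 105 and 90.2 TPM in Tmem216-/- and 84.5, 74.7 and 116 TPM in wild type (log2 fold change 0.05, SE 0.17, adjusted p = 0.986). Col15a1 was at 18.0, 15.6 and 14.4 TPM in Tmem216-/- and 19.4, 15.2 and 25.6 TPM in wild type (-0.28, SE 0.20, adjusted p = 0.983), and it was the lower one of the 6 tested chains in this class. The summed level of 8 endothelial markers ran from 182 to 217 TPM in Tmem216-/- and from 159 to 196 TPM in wild type, with 7 higher and 1 lower, and its part in these values was not tested.

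Cartilage chains had a median log2 fold change of -0.13, with 1 of 6 tested chains higher, 5 lower and 0 passing. Col2a1, which encodes the main cartilage fibril and is also made by notochord, was at 175.3, 188 and 161 TPM in Tmem216-/- and 167, 156 and 251 TPM in wild type (log2 fold change -0.10, SE 0.18, adjusted p = 0.983). The 3 Tmem216-/- values lay between those of wild type replicate 2 and wild type replicate 3. Without wild type replicate 3 the class median was 0.035 and the log2 fold change of Col2a1 was 0.11. The lower direction of both thus rested on wild type replicate 3. Without wild type replicate 2 the log2 fold change of Col2a1 was -0.23.

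Type IX collagen coats type II fibrils and is built from the products of Col9a1, Col9a2 and Col9a3. Col9a2 was at 61.4, 48.2 and 54.7 TPM in Tmem216-/- and 50.1, 56.6 and 81.4 TPM in wild type (-0.17, SE 0.19, adjusted p = 0.983). Col9a1 was at 47.6, 54.0 and 52.6 TPM in Tmem216-/- and 48.3, 51.7 and 58.8 TPM in wild type (-0.04, SE 0.11, adjusted p = 0.983). Col9a3 was at 43.2, 30.6 and 29.1 TPM in Tmem216-/- and 33.3, 41.5 and 48.3 TPM in wild type (-0.26, SE 0.20, adjusted p = 0.983). For all 3 genes the highest sample was wild type replicate 3, and the groups overlapped. In Col9a3, 6.07% of the exon bases overlap Tcfl5 on the opposite strand, and without a stated strand setting reads in that stretch could be assigned to either gene.

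Type XI collagen nucleates cartilage fibrils. Col11a1 had the smallest unadjusted p of all 36 chains, 0.0671, at 37.3, 33.4 and 29.8 TPM in Tmem216-/- and 27.0, 26.9 and 29.9 TPM in wild type (log2 fold change 0.25, interval from -0.02 to 0.53, SE 0.11, adjusted p = 0.983). The lowest Tmem216-/- value lay just under the highest wild type value. Col11a2 was at 8.21, 8.26 and 7.78 TPM in Tmem216-/- and 7.44, 13.4 and 9.73 TPM in wild type (-0.27, SE 0.21, adjusted p = 0.983). Col10a1, the marker of hypertrophic cartilage, was listed at 0, 0 and 0.04 TPM in Tmem216-/- and at 0, 0.06 and 0 TPM in wild type and was not tested.

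The cells that make these chains were followed by markers other than collagens, and the part of these markers in the collagen values was not tested. Chondrocyte genes other than collagens, of which 7 of 10 were tested, summed to between 74.1 and 94.1 TPM in Tmem216-/- and between 82.3 and 99.9 TPM in wild type, with the highest sum in wild type replicate 3. Of the 7 tested, 3 were higher and 4 lower, and 0 passed. Epyc and Hapln1, a proteoglycan gene and a link protein gene of cartilage matrix, had groups that lay apart. They were 2 of 7 that lay apart with higher values in Tmem216-/-, beside 4.75% of all tested genes. Epyc was at 2.47, 2.38 and 1.91 TPM in Tmem216-/- and 1.25, 1.39 and 1.2 TPM in wild type (log2 fold change 0.51, adjusted p = 0.983), and Hapln1 at 5.78, 5.81 and 5.32 TPM in Tmem216-/- and 3.85, 4.86 and 2.37 TPM in wild type (0.54, adjusted p = 0.983). Both were lowest in wild type replicate 3. Matn1 was at 1.65, 1.05 and 1.09 TPM in Tmem216-/- and 1.65, 1.96 and 3.15 TPM in wild type (-0.51, adjusted p = 0.983). Matn4 had a log2 fold change of -0.38, and the groups overlapped for both. The proteoglycan gene Acan was at 2.15 to 3.02 TPM in Tmem216-/- and 2.70 to 4.60 TPM in wild type. Sox9, the regulator of cartilage formation, was at 37.2 to 44.2 TPM in Tmem216-/- and 39.8 to 48.9 TPM in wild type. Osteoblast genes other than collagens, of which 5 of 8 were tested, summed to between 27.2 and 32.5 TPM in Tmem216-/- and between 27.9 and 53.4 TPM in wild type. Of the 5 tested, 0 were higher and 5 lower, and 0 passed. The groups lay apart for 1, Spp1, beside 4.83% of all tested genes that lay apart with lower values. Spp1 was at 1.60, 2.28 and 3.07 TPM in Tmem216-/- and 3.21, 3.21 and 3.09 TPM in wild type. Bglap2, the osteocalcin gene of mature bone, was listed at 0 in all 6 samples. Tendon and loose mesenchyme genes, with 9 of 9 tested, summed to between 262 and 299.0 TPM in Tmem216-/- and between 237 and 299.2 TPM in wild type, with the lowest sum in wild type replicate 3. The summed level of 6 notochord markers ran from 34.8 to 35.3 TPM in Tmem216-/- and from 38.1 to 49.0 TPM in wild type. Krt8, a keratin gene, had the highest level of the 6, at a mean of 14.0 TPM in Tmem216-/- and 21.9 TPM in wild type. T averaged 0.83 TPM in Tmem216-/- and 1.27 TPM in wild type, and Noto was listed at 0 in all 6 samples. Of the 5 notochord markers tested, 2 were higher, 3 lower and 0 passed, and the groups overlapped in each.

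The other 21 chains, of which 17 were tested, had a median log2 fold change of 0.07, with 10 higher, 7 lower and 0 passing. Type VI collagen forms beaded filaments around cells, from the products of Col6a1, Col6a2 and Col6a3. Col6a2 was at 40.0, 35.5 and 33.1 TPM in Tmem216-/- and 39.7, 31.0 and 52.4 TPM in wild type (-0.15, SE 0.19, adjusted p = 0.983). Col6a1 was at 33.4, 30.0 and 27.2 TPM in Tmem216-/- and 31.6, 27.2 and 42.8 TPM in wild type (-0.14, SE 0.18, adjusted p = 0.983). Col6a3 averaged 26.8 ± 4.85 TPM in Tmem216-/- and 31.2 ± 3.27 TPM in wild type (SD, n = 3 each), with a log2 fold change of -0.22. All 3 were highest in wild type replicate 3. The later type VI chains lie in a row on chromosome 9 and were low: Col6a6 was tested, at 1.09 ± 0.18 TPM in Tmem216-/- and 0.82 ± 0.19 TPM in wild type. Col6a4 and Col6a5 were not tested and stayed between 0.24 and 0.96 TPM in Tmem216-/- and between 0.04 and 1.31 TPM in wild type.

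Fibril-associated collagens bind the surface of type I fibrils. Col12a1, expressed in tendon and fascia, was at 54.7, 40.6 and 38.7 TPM in Tmem216-/- and 33.6, 39.6 and 50.5 TPM in wild type (log2 fold change 0.12, SE 0.19, adjusted p = 0.983). Its relative Col14a1 was at 18.9, 11.3 and 12.6 TPM in Tmem216-/- and 11.2, 15.1 and 11.9 TPM in wild type. Tmem216-/- replicate 1 was the highest sample for both. Col16a1 averaged 17.9 ± 1.90 TPM in Tmem216-/- and 18.5 ± 1.14 TPM in wild type, and Col22a1, of muscle and tendon junctions, 2.79 ± 0.10 TPM in Tmem216-/- and 2.60 ± 0.90 TPM in wild type. Col20a1, with the highest log2 fold change of the 36 (0.37, SE 0.24, adjusted p = 0.983), was at 1.99, 1.22 and 1.34 TPM in Tmem216-/- and 0.66, 1.5 and 0.74 TPM in wild type. Col19a1 was not tested, at 0.26 to 0.78 TPM in Tmem216-/- and 0.20 to 0.84 TPM in wild type.

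Of the network, anchoring and remaining chains, Col26a1 was the most abundant. It was also the highest of all chains outside the fibrillar, basement membrane and cartilage classes. It was at 131, 124 and 121 TPM in Tmem216-/- and 113, 96.5 and 174 TPM in wild type (log2 fold change 0.02, SE 0.21, adjusted p = 0.998), a mean level of 127 TPM per length beside 126 TPM for Col4a1. The Tmem216-/- samples lay close together, inside the wild type range. Col8a2, a chain of the hexagonal network beneath corneal endothelium, averaged 26.3 ± 1.51 TPM in Tmem216-/- and 25.1 ± 11.1 TPM in wild type, and its partner Col8a1 3.05 ± 0.08 TPM in Tmem216-/- and 2.89 ± 0.52 TPM in wild type. Col7a1, the anchoring fibril of skin, averaged 5.23 ± 0.76 TPM in Tmem216-/- and 6.35 ± 2.63 TPM in wild type (SD, n = 3 each). Col28a1 was not tested, at 0.16 to 0.33 TPM in Tmem216-/- and 0.14 to 0.41 TPM in wild type.

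Transmembrane collagens sit in the membranes of epithelial, muscle and nerve cells. Col17a1, of the hemidesmosomes of skin, had the lowest log2 fold change of the 36 (-0.49, SE 0.31, adjusted p = 0.983). It was at 1.55, 0.98 and 1.95 TPM in Tmem216-/- and 4.26, 1.57 and 2.05 TPM in wild type, and wild type replicate 1 was the highest sample. Without that sample the log2 fold change was -0.19, and without wild type replicate 2 it was -0.70. Col13a1, of the neuromuscular junction, was at 5.80, 5.97 and 5.88 TPM in Tmem216-/- and 3.78, 3.80 and 8.03 TPM in wild type (0.22, SE 0.27, adjusted p = 0.983). Col23a1 averaged 16.7 ± 1.95 TPM in Tmem216-/- and 18.6 ± 3.77 TPM in wild type, and Col25a1, which encodes a neuronal collagen, 11.6 ± 2.38 TPM in Tmem216-/- and 10.8 ± 1.28 TPM in wild type.

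Collagen levels varied more among wild type samples than among Tmem216-/- samples in 27 of 36 chains (75%, beside 72.1% of all tested genes). The median coefficient of variation of the 36 chains was 11.4% among Tmem216-/- samples and 22.0% among wild type samples, beside 9.35% in Tmem216-/- and 18.5% in wild type over all tested genes. Wild type replicate 3 was the highest of the 6 samples in 21 of 36 chains (58.3%, beside 35.3% of all tested genes). Wild type replicate 2 was the lowest in 15 chains (41.7%, beside 25.6%). The level in wild type replicate 3 divided by the mean of wild type replicates 1 and 2 ran from 0.28 for Col24a1 to 2.12 for Col13a1. It was above 1.5 for Col9a2, Col2a1, Col26a1, Col4a2, Col22a1, Col7a1, Col8a2 and Col13a1, which belong to 3 of the classes. Of 8 neuronal markers, 3 were highest in wild type replicate 3 (Tubb3, Stmn2 and Elavl3), near the 35.3% of all tested genes. Elavl4 was lowest there. Tubb3 was at 692, 812 and 748 TPM in Tmem216-/- and 775, 470.1 and 1227 TPM in wild type. The summed level of 6 lens markers was 52.4 TPM in wild type replicate 3 and 2.84 to 7.08 TPM in the other samples. That of 8 hepatocyte markers was 203 TPM in wild type replicate 3, and 2028 and 2386 TPM in wild type replicates 1 and 2. The part of this sample's tissue content in its collagen levels was not tested.

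Without wild type replicate 3, 0 of 36 chains passed over all genes in limma and the median log2 fold change was 0.09, beside 0.01 over all tested genes. In that fit 27 chains were higher (75%, beside 52.3% of all tested genes) and 9 lower. Of the 36, 6 had an unadjusted p under 0.05 (16.7%, beside 7.83% of the 16114 genes then tested), and all 6 were higher in Tmem216-/-. They were Col13a1 (log2 fold change 0.52, adjusted p = 0.450), Col8a2 (0.46, 0.546), Col4a2 (0.38, 0.587), Col4a1 (0.34, 0.546), Col11a1 (0.30, 0.604) and Col26a1 (0.26, 0.561). These genes are named because they made up that count, after their values were seen. Wild type replicate 3 was the highest sample for 21 of 36 chains, so leaving it out moves those chains upward in Tmem216-/-. The direction of the 6 is therefore not independent of the sample left out. An unadjusted limma p under 0.05 was found for 1, 0 and 1 chains without Tmem216-/- replicates 1, 2 and 3, and for 0 without wild type replicate 1. Without wild type replicate 2 in place of replicate 3, the median log2 fold change of the chains was -0.08, beside -0.02 over all tested genes. The same 6 genes then had log2 fold changes of 0.07 for Col13a1, -0.13 for Col8a2, -0.11 for Col4a2, 0.02 for Col4a1, 0.22 for Col11a1 and -0.16 for Col26a1. Col8a2, Col4a2 and Col26a1 were thus higher or lower in Tmem216-/- depending on which wild type sample was left out.

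**Figure D3:**
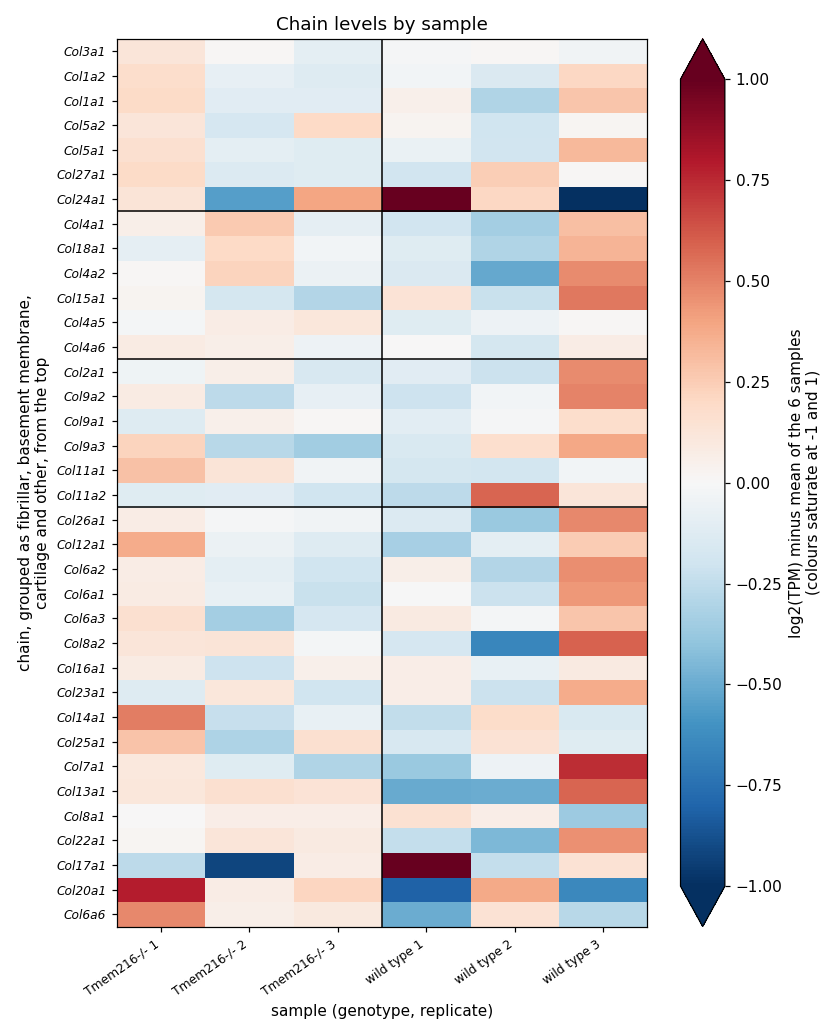
Colours give the log2(TPM) of each tested chain in each sample minus the mean of the 6 samples, red above and blue below and saturating at -1 and 1, with the 3 Tmem216-/- samples on the left and the classes separated by lines. Wild type replicate 3 is the column with most red, being the highest sample for 21 of 36 chains, and Tmem216-/- replicate 1 is the highest for 8.

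Proportions were compared for chains that assemble into the same molecule, or that share a start region. Because TPM is per length, the ratio of 2 chains can be read as a ratio of transcripts. The ratio of Col1a1 to Col1a2 was 0.61 ± 0.01 in Tmem216-/- and 0.61 ± 0.06 in wild type (SD, n = 3 each), and that of Col6a1 to Col6a2 was 0.83 ± 0.01 in Tmem216-/- and 0.83 ± 0.04 in wild type. Over the 6 samples the ratio of Col6a1 to Col6a2 ranged over 1.10-fold and that of Col1a1 to Col1a2 over 1.18-fold. The ratio of Col4a1 to Col4a2 was 1.64 ± 0.05 in Tmem216-/- and 1.61 ± 0.20 in wild type, and that of Col4a5 to Col4a6 was 4.49 ± 0.42 in Tmem216-/- and 4.33 ± 0.40 in wild type.

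In 10 ratios compared, 0 passed an exact two-sided permutation test over the samples, and the adjusted p was 1 for each; with 3 against 3 samples no ratio could have passed. The groups lay apart in 1 of the 10 ratios, near the share of all tested genes that lay apart in either direction (9.57%). That was the ratio of Col11a1 to Col11a2, at 4.55, 4.04 and 3.84 in Tmem216-/- and 3.63, 2.01 and 3.07 in wild type (exact permutation p = 0.1, the smallest possible). The log2 ratio was higher by 0.55, with Col11a1 higher and Col11a2 lower in Tmem216-/-, and from 0.31 to 0.73 with each sample left out. The ratio of Col9a1 to Col9a3 was 1.10, 1.77 and 1.81 in Tmem216-/- and 1.45, 1.25 and 1.22 in wild type, and Tmem216-/- replicate 1 was the lowest of the 6. The widest ratio was that of Col8a1 to Col8a2, which ranged over 3.17-fold, with 0.11 to 0.13 in Tmem216-/- and 0.06 to 0.20 in wild type.

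**Figure D4:**
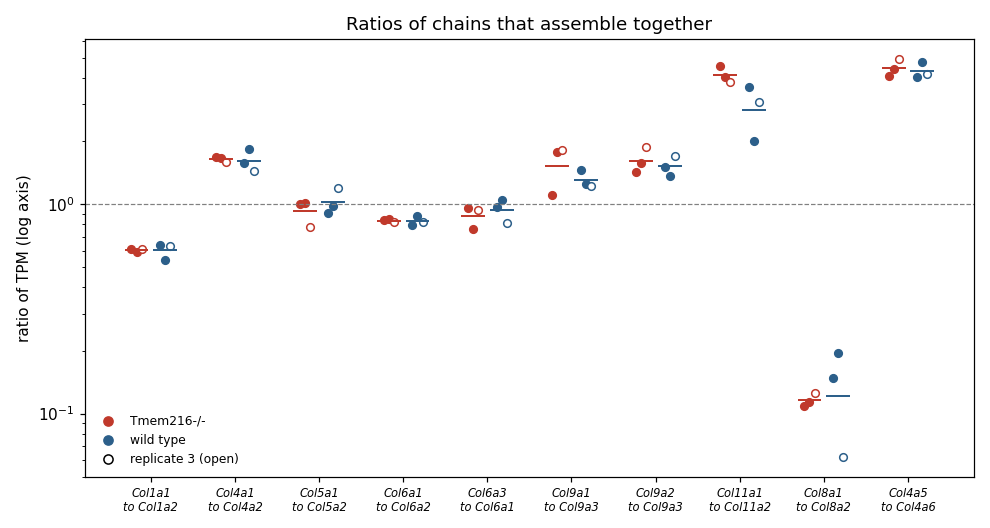
Points give the TPM of the first chain divided by that of the second (log axis) in each sample, Tmem216-/- in red on the left, wild type in blue on the right, replicate 3 open, with lines at the geometric means and a dashed line at 1. Col11a1 to Col11a2 is the 1 ratio of 10 in which all Tmem216-/- points lie above all wild type points, and Col6a1 to Col6a2 varies least.

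Genes that process, export, cross-link, bind or degrade collagen were described from 8 lists holding 95 genes, of which 88 were tested. Of these, 0 passed in limma in either direction, 52 were higher and 36 were lower, and the median log2 fold change was 0.04. Of all tested genes 48.3% were higher, which stands beside the counts of each list below, and no list was tested as a set. The groups lay apart with higher values in Tmem216-/- for 11 genes (12.5%, beside 4.75% of all tested genes) and with lower values for 1 gene (1.14%, beside 4.83%). An unadjusted p under 0.05 was found for 5 of the 88, beside the 4.46% given for all genes.

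Enzymes that hydroxylate and glycosylate collagen in the endoplasmic reticulum had 8 of 15 genes higher and 7 lower. P4ha1, a prolyl hydroxylase subunit needed for a stable helix and induced by hypoxia, was at 43.4, 36.2 and 39.0 TPM in Tmem216-/- and 32.6, 34.5 and 28.7 TPM in wild type (log2 fold change 0.30, adjusted p = 0.983). Plod2, a lysyl hydroxylase, was at 43.0, 44.5 and 37.5 TPM in Tmem216-/- and 28.4, 42.1 and 24.0 TPM in wild type (0.43, adjusted p = 0.983). Folding and export genes had 9 of 11 higher (beside 48.3% of all tested genes) and 2 lower. Sec23a, a coat protein of the vesicles that carry procollagen out, was at 50.6, 50.6 and 49.9 TPM in Tmem216-/- and 45.1, 46.3 and 41.5 TPM in wild type (0.18, adjusted p = 0.983), and its coat partner Sec24d had a log2 fold change of 0.19.

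Of the propeptide processing genes, 2 of 7 tested were higher and 5 lower. Bmp1, the C-propeptidase, had a log2 fold change of -0.20 and its enhancer Pcolce 0.14. Of the cross-linking and fibril assembly genes, 11 of 13 tested were higher (beside 48.3% of all tested genes) and 2 lower. The groups lay apart with higher values in Tmem216-/- for 3 of the 13, beside 4.75% of all tested genes. Lox and Loxl2, which oxidise lysines for cross-links, were at 15.8, 14.0 and 12.03 TPM in Tmem216-/- against 10.8, 11.7 and 8.86 TPM in wild type (0.39), and at 43.6, 50.3 and 43.6 TPM in Tmem216-/- against 35.6, 32.3 and 42.4 TPM in wild type (0.32); both had an adjusted p of 0.983.

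Collagen receptor genes had 5 of 8 tested higher and 3 lower, with the integrin genes Itga1 at a log2 fold change of 0.31 and Itgb1 at 0.25. Metalloproteinase and inhibitor genes had 6 of 10 tested higher and 4 lower. Within this list the values of the inhibitor genes Timp1, Timp3 and Reck lay apart between the groups, higher in Tmem216-/-. They were 3 of 10 tested, beside 4.75% of all tested genes. The values of the inhibitor gene Timp2 overlapped (log2 fold change 0.03). Timp1 was at 15.1, 14.4 and 12.6 TPM in Tmem216-/- and 8.46, 12.03 and 10.1 TPM in wild type (0.44, adjusted p = 0.983), and Timp3 had a log2 fold change of 0.21.

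Basement membrane partners had 8 of 12 genes higher and 4 lower. Lama5, a laminin chain of epithelial and vascular basement membranes, had the smallest unadjusted p of the 88 genes, 0.000438, at 7.28, 7.36 and 6.93 TPM in Tmem216-/- and 14.6, 12.1 and 14.2 TPM in wild type. The groups lay apart, but the log2 fold change of -0.83 did not pass over all genes (SE 0.13, adjusted p = 0.149). Nid2, which links laminin to type IV collagen, had a log2 fold change of 0.20. Regulators of collagen genes had 3 of 12 higher and 9 lower, with Sox6, a partner of Sox9 in cartilage, at -0.28 and Sp7, the osteoblast regulator, at -0.24.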

How the data were processed

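RNA sequencing measured 3 Tmem216-/- and 3 wild type samples. Per the submitters' processing notes, CASAVA 1.8, HISAT2, StringTie and RSEM were used with mm10. The authors deposited TPM per gene, and 2 columns that equal the group means were not used. The depth per sample is unknown, so no counting error was computed. Dates stood in place of 27 gene names, which were restored from the identifier.

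Testing was limited to genes with 3 or more values not under 1 TPM and used log2(TPM + 1) with limma 3.58.1 (R 4.3.3; lmFit, eBayes with a trend), two-sided. The Benjamini-Hochberg adjustment covered the 16411 genes, of which 17 passed at 0.05. Fold changes on this scale understate changes of low genes. Ratios of chains used TPM without a pseudocount. SE is the moderated standard error. Positions are from GENCODE M21.

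The members and lists were chosen with earlier results of these data known. Chains given with all 6 values include the 4 most abundant of each class, and the 2 genes with the smallest p are named per list. Others were named after their values were seen. On simulated data for the same comparison (16093 genes after the filter, 50 changed genes per size), 78% of 2-fold and 86% of 4-fold changes were recovered by limma. Of its 196 calls 15 were false. The planted changes reached 16-fold and were placed only in better expressed genes. With 196 calls, against 17 in the data, the adjusted threshold was easier to pass. These shares therefore do not give the chance of finding a changed collagen chain in the data. Python 3.11.15, pandas 2.3.3 and matplotlib 3.10.9 were used.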

Additional observations from a re-analysis of the deposited data

How the results depend on the processing

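In limma 0 collagen chains passed under each of 15 alternatives: median-of-ratios scaling, other pseudocounts (0.1 and 5), testing without a filter or from 5 TPM, rescaling once haemoglobin, mitochondrial and rRNA genes were taken out, eBayes without a trend or robust, the replicate block, and each sample left out. The lowest adjusted p of any chain was 0.400. Of 530 recomputed log2 fold changes, 519 moved by less than 1 SE. The exceptions were Col20a1 with the pseudocounts (0.65 at 0.1 and 0.13 at 5) and 9 chains without wild type replicate 3. With each sample left out, the median log2 fold change ran from -0.08 to 0.09 over all chains, from -0.12 to 0.07 for fibrillar, from -0.05 to 0.18 for basement membrane, from -0.25 to 0.035 for cartilage and from -0.12 to 0.085 for other chains, so no class kept its direction whichever sample was left out. Over all genes, 17 passed. No filter left 0 in limma, with 1207 of 30598 at an unadjusted p under 0.05, and leaving out samples left 0 to 20; the lowest was without wild type replicate 1, with 505 at an unadjusted p under 0.05, and 5, 4 and 1 passed without Tmem216-/- replicate 2, Tmem216-/- replicate 3 and wild type replicate 3. The cause was not tested. The replicate block gave 25 genes and 0 collagen chains; same-numbered samples had correlations of deviations of 0.02, -0.09 and 0.10, so the numbers were not taken to pair samples. Depth is unknown, and chains under 1 TPM could not be assessed.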
